A study of Rattus norvegicus with 39 samples.

Results

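Roziglitazone, as the labels spell the antidiabetic drug rosiglitazone, was compared with no treatment in rat liver. The comparison took 14 of the 39 arrays of the series, chosen by their titles. The Roziglitazone group held 5 rats given 1000 mg/kg by mouth in methylcellulose solution, and the control group held 9 untreated rats. Livers of both groups were taken 48 h after treatment from rats between 5 and 6 weeks old, and total RNA of the left lateral lobe was hybridised to Affymetrix GeneChip Rat230 arrays, 1 array per biological replicate. The strain and sex of the rats are not given in the sources used here. The controls were given nothing, so compound, vehicle and route cannot be told apart. A further 25 arrays (ANIT, Caerulein, DMN, DNP and NMF, 5 each) entered the model for the spread between replicates. Among them, the 5 rats given 50 µg/kg Caerulein, a peptide that stimulates the pancreas, in saline into the peritoneum and the 5 given 15 mg/kg DNP, the mitochondrial uncoupler dinitrophenol, in water by mouth served as another reference. The ANIT rats, used here to describe 1 array, had 125 mg/kg of that bile duct toxicant in corn oil by mouth. The DMN rats had 15 mg/kg in water by mouth, and the NMF rats 1000 mg/kg in saline into the peritoneum. The time of 48 h and the age of 5 to 6 weeks were the same in all these groups.

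Rosiglitazone is a thiazolidinedione that binds and activates the nuclear receptor PPARG. PPARG pairs with RXR and binds DNA at a direct repeat of a short half-site, and in fat cells it drives genes for fatty acid uptake, lipid droplets and adipokines. PPARG is scarce in normal liver, where the related receptor PPARA governs fatty acid oxidation in peroxisomes and mitochondria, and in rodents strong PPARA agonists raise these genes many-fold.

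All values are log2 intensities, so a difference of 1 is a 2-fold difference, and the number of arrays limits their precision. Roziglitazone 2 resembled the ANIT livers. Its deviation from the mean of the other arrays had a Pearson r across 14217 genes of 0.81 with the ANIT profile and of -0.30 with that of the other Roziglitazone arrays, while Roziglitazone 1, 3, 4 and 5 had an r with the ANIT profile between -0.37 and -0.01. With the other Roziglitazone arrays, Roziglitazone 2 left out, Roziglitazone 1, 3, 4 and 5 had an r of -0.17, 0.17, 0.39 and 0.15. Genes are not independent, and these r values describe the arrays only. The resemblance was known when the comparison was set up, so results are given without Roziglitazone 2 and with all 5 arrays. Each log2 fold change carries its SE from limma after the ± sign. Roziglitazone 1 stood apart in another way. Its GAPDH signal from the 5' end of the transcript was 4.42 below that from the 3' end, against 0.88 below in Roziglitazone 2 and 0.07 to 0.25 below in Roziglitazone 3, 4 and 5. In controls this gap was 5.64 in control 4, 1.75 in control 5 and 1.37 in control 1, and 0.19 to 0.58 in the other 6. Roziglitazone 1 also deviated from the mean of all arrays together with control 5 (r = 0.77 across genes) and control 4 (r = 0.51). The liver label held in every array: albumin (Alb) ran from 14.43 to 14.49 in Roziglitazone livers and from 14.40 to 14.47 in control livers.

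**Figure D1:**
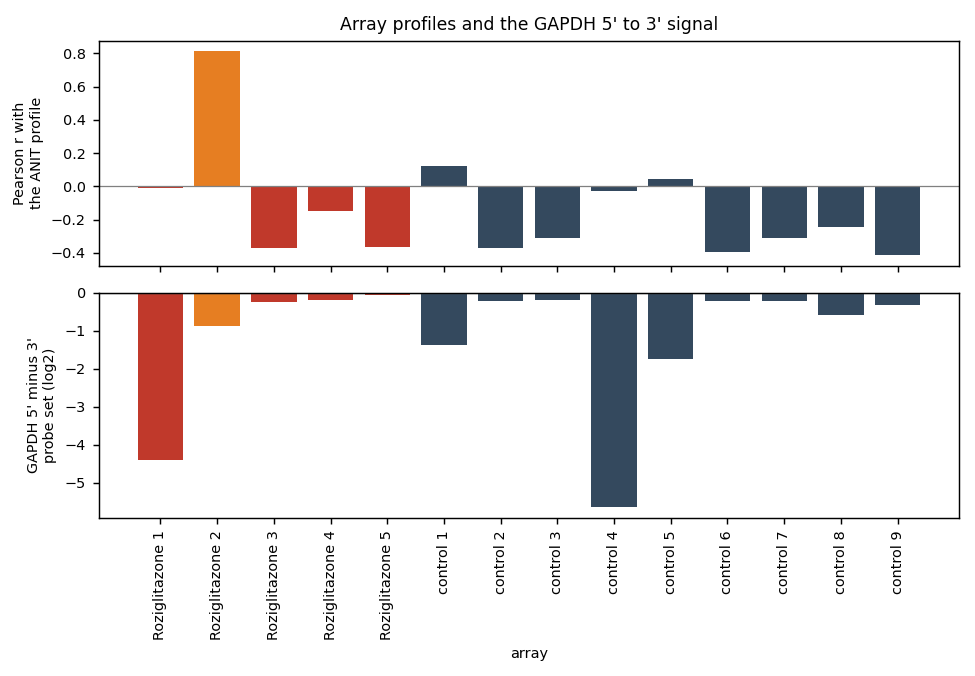
Each bar is 1 array, with the 5 Roziglitazone arrays left of the 9 controls. The upper panel gives the Pearson r across genes of the array's deviation with the ANIT profile, which is 0.81 for Roziglitazone 2 (orange) and at most 0.12 for the others; the lower panel gives the log2 difference between the GAPDH 5' and 3' probe sets, lowest in Roziglitazone 1 (-4.42) and control 4 (-5.64).

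No gene was called between Roziglitazone and control livers. With limma and an adjusted p under 0.05 (Benjamini-Hochberg), 0 of 14217 genes (0%) passed with all 5 Roziglitazone arrays, and 0 (0%) without Roziglitazone 2. At an unadjusted p under 0.05, limma gave 1044 genes (7.34%) with all arrays, 415 higher (2.92%) and 629 lower (4.42%) in Roziglitazone, and 872 genes (6.13%) without Roziglitazone 2, 377 higher (2.65%) and 495 lower (3.48%). The lowest adjusted p was 0.560 with all arrays and 0.321 without Roziglitazone 2. The same model and controls gave 2344 called genes (16.5%) for ANIT, 1478 (10.4%) for DMN (dimethylnitrosamine, 15 mg/kg) and 1063 (7.48%) for NMF (N-methylformamide, 1000 mg/kg), and 0 (0%) for Caerulein and DNP; all share the 9 controls. Few genes separated the groups completely. The 5 Roziglitazone arrays lay above all 9 controls in 4 genes (0.0281%) and below them in 26 (0.183%). Without Roziglitazone 2 the counts were 18 (0.127%) and 45 (0.317%).

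The spread among Roziglitazone livers was close to that of the controls: the median over genes of the SD within a group was 0.34 for 5 Roziglitazone arrays, 0.32 without Roziglitazone 2 and 0.34 for the controls. The 95% confidence interval of a gene's log2 fold change, from limma and not adjusted over genes, reached a median of 0.43 to either side without Roziglitazone 2. It lay wholly within a 2-fold difference in either direction for 12716 genes (89.4%). The median log2 fold change over all genes was -0.06, with and without Roziglitazone 2.

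The receptors were measured at modest levels and none passed the test. Pparg, the receptor that rosiglitazone activates, read 6.81, 6.07, 5.79, 5.29 and 6.21 in Roziglitazone 1 to 5, against 5.88, 6.47 and 6.81 as the lowest, median and highest of the controls. Roziglitazone 3 and 4 lay below every control, Roziglitazone 1 was level with the highest control, and the groups overlapped. Pparg averaged 6.02 ± 0.65 in Roziglitazone livers without Roziglitazone 2 (SD, n = 4) and 6.44 ± 0.31 in control livers (SD, n = 9), a log2 fold change of -0.42 ± 0.25 (limma adjusted p = 0.836); with all 5 arrays it was -0.41 ± 0.23 (adjusted p = 0.706).

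Ppard, the broadly expressed member of the family, read 8.40, 8.37, 8.11, 7.87 and 8.29 in Roziglitazone 1 to 5, against 8.23, 8.57 and 9.08 as the lowest, median and highest control. All 5 Roziglitazone arrays lay below the control median, and 3 of them lay inside the control range. Its log2 fold change was -0.45 ± 0.19 without Roziglitazone 2 (limma adjusted p = 0.803) and -0.41 ± 0.18 with all arrays (adjusted p = 0.669). Ppara, the main PPAR of hepatocytes, read 5.04, 6.08, 6.64, 6.43 and 6.41 in Roziglitazone 1 to 5, against 5.27, 6.36 and 6.65 in the lowest, median and highest control. Roziglitazone 1 was the only array of its group outside the control range, and the lowest control was control 5. Rxra, the partner receptor, and Ppargc1a, a coactivator of oxidative genes, had log2 fold changes of -0.17 ± 0.52 and -0.34 ± 0.23 without Roziglitazone 2, and of -0.32 ± 0.48 and -0.38 ± 0.21 with all arrays.

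No gene that PPARG drives in fat cells was called. Of 30 listed PPARG target and lipid droplet genes, 29 were measured and 0 passed. At an unadjusted p under 0.05 without Roziglitazone 2, 0 were higher, against 2.65% of all genes, and 3 (10.3%) were lower (Plin1, Agpat2 and Plin4), against 3.48% of all genes. With all arrays the counts were 0 higher, against 2.92%, and 4 lower (13.8%), with Dgat2 as the fourth, against 4.42%. The log2 fold change was negative for 23 of the 29 genes (79.3%) without Roziglitazone 2, against 60.6% of all genes, and for 24 (82.8%) with all arrays, against 61.3%. Plin1 and Plin4 coat lipid droplets, Agpat2 makes phosphatidic acid and Dgat2 makes triglyceride. The median log2 fold change of the list was -0.21 without Roziglitazone 2 and -0.20 with all arrays, against -0.06 over all genes. Averaged over the list, the arrays stood at 0.12, -0.08, -0.12, -0.36 and -0.29 from the control mean in Roziglitazone 1 to 5, against a range of -0.12 to 0.14 among the controls. Roziglitazone 4 and 5 lay below the controls and Roziglitazone 1 near their top. Averaged over all genes, Roziglitazone 1 to 5 stood at 0.09, -0.04, -0.08, -0.12 and -0.05, against -0.07 to 0.12 among the controls. Over all genes Roziglitazone 3 and 4 were thus below the controls, and Roziglitazone 5 was inside their range. In the list Roziglitazone 3 was inside the control range. In whole liver, fewer cells of a type and less RNA per cell cannot be told apart, here or in the lists that follow.

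Fabp4, the fatty acid carrier of adipocytes, read 7.28, 7.03, 6.10, 5.60 and 5.62 in Roziglitazone 1 to 5, against 4.92, 6.01 and 7.18 in the lowest, median and highest control. Roziglitazone 1 and 2 were at the top and the other 3 close to the control median, so the groups overlapped. The log2 fold change was 0.30 ± 0.50 without Roziglitazone 2, with a 95% interval from -0.72 to 1.32 (limma adjusted p = 0.925), and 0.47 ± 0.47 with all arrays (adjusted p = 0.837).

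Cd36, the scavenger receptor that takes up fatty acids, split into high and low arrays within both groups. It read 6.24 in Roziglitazone 1 and 9.15, 8.46, 8.76 and 9.02 in Roziglitazone 2 to 5, against 5.87, 5.53 and 5.63 in controls 1, 4 and 5 and between 8.10 and 8.95 in the other 6 controls. The 4 low arrays were the 4 of these 14 whose GAPDH 5' signal was at least 1.37 below the 3' signal, and without them the Roziglitazone and control ranges still overlapped. Its log2 fold change was 0.46 ± 0.76 without Roziglitazone 2 (limma adjusted p = 0.923), 0.67 ± 0.70 with all arrays (adjusted p = 0.848) and, without Roziglitazone 2, 0.49 with the GAPDH difference as a covariate. It was 1.09 when Roziglitazone 1 was left out as well (limma adjusted p = 0.694), a fit that kept the low controls 1, 4 and 5. Leaving out the arrays with a GAPDH gap above 2, Roziglitazone 1 and control 4 among them, gave 0.82 without Roziglitazone 2. The part of RNA quality in this split was not tested.

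The lipid droplet coats gave small differences. Plin2, which coats droplets in hepatocytes, read 11.19 and 11.38 in Roziglitazone 4 and 5 and 11.87 to 12.13 in the other 3, against 11.45, 11.98 and 12.24 in the lowest, median and highest control. Roziglitazone 4 and 5 were just below the lowest control and the other 3 inside the control range. Plin1, the adipocyte coat protein, had the lowest p of the PPARG target list in both fits, with 6.43, 6.08, 6.35, 6.49 and 6.09 in Roziglitazone 1 to 5 against 6.35, 6.85 and 7.12 in the lowest, median and highest control. All 5 Roziglitazone arrays were below the control median, and the fold change of -0.44 ± 0.17 without Roziglitazone 2 did not pass (limma adjusted p = 0.797), nor did that of -0.49 ± 0.16 with all arrays (adjusted p = 0.567). Cidea, a droplet fusion protein, read 7.86, 9.43, 6.54, 6.50 and 8.63 in Roziglitazone 1 to 5, against 6.58, 7.61 and 8.59 in the lowest, median and highest control. Roziglitazone 2 and 5 lay above the controls, and Roziglitazone 3 and 4 below them. Its log2 fold change was 0.28 with all arrays and -0.13 without Roziglitazone 2. Cidec, Lpl and Ucp2 had log2 fold changes between -0.42 and -0.16 without Roziglitazone 2, none called. Adipoq, which encodes the adipokine adiponectin, read between 5.77 and 6.17 in Roziglitazone livers and between 5.55 and 6.48 in control livers, with all 5 Roziglitazone arrays inside the control range.

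**Figure D2:**
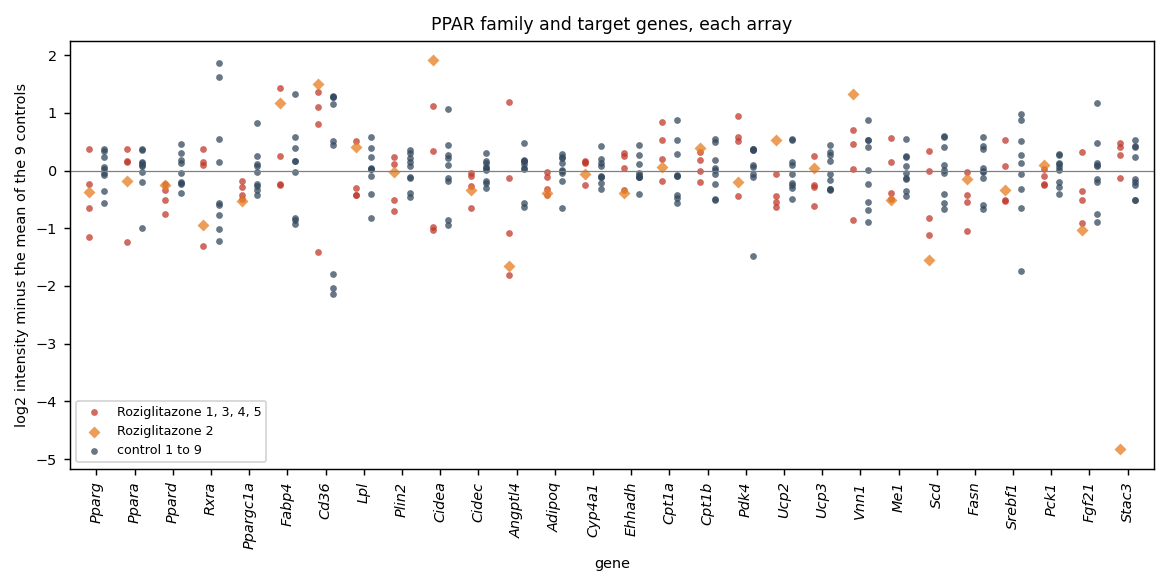
Each point is 1 array, as log2 intensity minus the mean of the 9 controls, for 28 genes: the PPAR family, metabolic genes and Stac3. Roziglitazone arrays stand left of the controls in each gene. The groups overlapped in every one of these genes; Stac3 in Roziglitazone 2 (orange diamond) lies farthest from the controls.

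No gene of fatty acid oxidation, the programme that PPARA governs, was called. Of 23 measured peroxisomal genes, 11 of microsomal omega oxidation, 32 of mitochondrial oxidation and 7 of ketogenesis, 0 were called in any list. The list medians without Roziglitazone 2 were 0.06, -0.01, 0.08 and 0.10 in that order, and with all arrays -0.02, -0.10, 0.05 and 0.04. At an unadjusted p under 0.05 without Roziglitazone 2, the 73 genes of the 4 lists held 1 higher (1.37%), Decr1, against 2.65% of all genes, and 0 lower, against 3.48%. With all arrays there were 2 higher (2.74%), Decr1 and Hibch, against 2.92%, and 2 lower (2.74%), Acox2 and Etfb, against 4.42%. The 95% intervals without Roziglitazone 2 lay within 2-fold for 22 of the 23 peroxisomal genes (95.7%), all 11 omega oxidation genes, 28 of the 32 mitochondrial genes (87.5%) and 6 of the 7 ketogenesis genes (85.7%), against 89.4% of all genes.

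Cyp4a1, the fatty acid omega-hydroxylase and a standard marker of PPARA activation in rats, read 11.54, 11.33, 11.13, 11.50 and 11.53 in Roziglitazone 1 to 5, against 11.05, 11.29 and 11.81 in the lowest, median and highest control. All 5 lay inside the control range. The log2 fold change was 0.05 ± 0.20, with a 95% interval from -0.35 to 0.45 (limma adjusted p = 0.975, without Roziglitazone 2), and 0.03 ± 0.18 with all arrays (adjusted p = 0.979). Ehhadh, the peroxisomal bifunctional enzyme, read between 11.07 and 11.77 in Roziglitazone livers, inside the 11.06 to 11.90 of the controls, with a log2 fold change of 0.06 ± 0.33. Cpt1a, the gate for fatty acids into mitochondria, was also inside the control range on all 5 arrays, with a log2 fold change of 0.35 ± 0.27. Pdk4, the kinase that shuts down pyruvate oxidation, read 10.37, 9.60, 10.75, 10.30 and 9.36 in Roziglitazone 1 to 5, against 8.32, 9.90 and 10.18 in the lowest, median and highest control. Roziglitazone 1, 3 and 4 were above every control, while Roziglitazone 2 and 5 were below the control median.

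Decr1, a mitochondrial reductase for unsaturated fatty acids, had the lowest p of these 4 lists without Roziglitazone 2. It read 11.88, 10.94, 11.31, 11.67 and 11.96 in Roziglitazone 1 to 5, against 10.66, 11.27 and 11.51 in the lowest, median and highest control. Roziglitazone 1, 4 and 5 lay above the controls. The log2 fold change was 0.53 ± 0.19 without Roziglitazone 2 (limma adjusted p = 0.797) and 0.37 ± 0.18 with all arrays (adjusted p = 0.678). With all arrays the lowest p was that of Etfb, an electron transfer flavoprotein subunit, with a log2 fold change of -0.32 ± 0.12 (limma adjusted p = 0.626), against -0.23 ± 0.12 without Roziglitazone 2 (adjusted p = 0.813). Angptl4, a secreted lipase inhibitor that both PPARA and PPARG induce, spread more in Roziglitazone livers than in controls, with 10.59, 9.07, 11.90, 9.62 and 8.91 in Roziglitazone 1 to 5 against 10.08, 10.83 and 11.20 in the lowest, median and highest control. Roziglitazone 3 was above every control, and Roziglitazone 2, 4 and 5 were below every control.

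Among 28 other genes that PPARA regulates, 0 were called, with a median log2 fold change of -0.05 without Roziglitazone 2 and -0.07 with all arrays; without Roziglitazone 2, at an unadjusted p under 0.05, 0 were higher, against 2.65% of all genes, and 4 were lower (14.3%), against 3.48%. These were Lpin1, Mgll, Akr1b7 and Tsc22d3, and the same 4 were lower with all arrays, against 4.42% of all genes. Without Roziglitazone 2, 1 of 708 measured genes on any list (0.141%) had all Roziglitazone arrays below every control, against 0.317% of all genes. None had them all above the controls, against 0.127% of all genes. The gene below was Mgll, the monoacylglycerol lipase. It read 9.05, 9.28, 9.09, 9.07 and 8.74 in Roziglitazone 1 to 5, against 9.14 in the lowest and 9.52 in the median control, a log2 fold change of -0.58 ± 0.17 without Roziglitazone 2 (limma adjusted p = 0.797) and -0.52 ± 0.16 with all arrays (adjusted p = 0.560). Akr1b7, an aldose reductase family member, had the largest difference of the lists, a log2 fold change of -2.52 ± 0.92 without Roziglitazone 2 (limma adjusted p = 0.797) and -2.31 ± 0.85 with all arrays (adjusted p = 0.615). It read 5.91, 5.82, 4.39, 4.60 and 4.18 in Roziglitazone 1 to 5, against 5.33, 6.51 and 9.70 in the lowest, median and highest control. The controls spread over more than 4 log2 units, and Roziglitazone 1 and 2 lay inside their range. Roziglitazone 3, 4 and 5 read within the signal of the poly-A control probe sets of this array design (3.49 to 4.70).

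**Figure D3:**
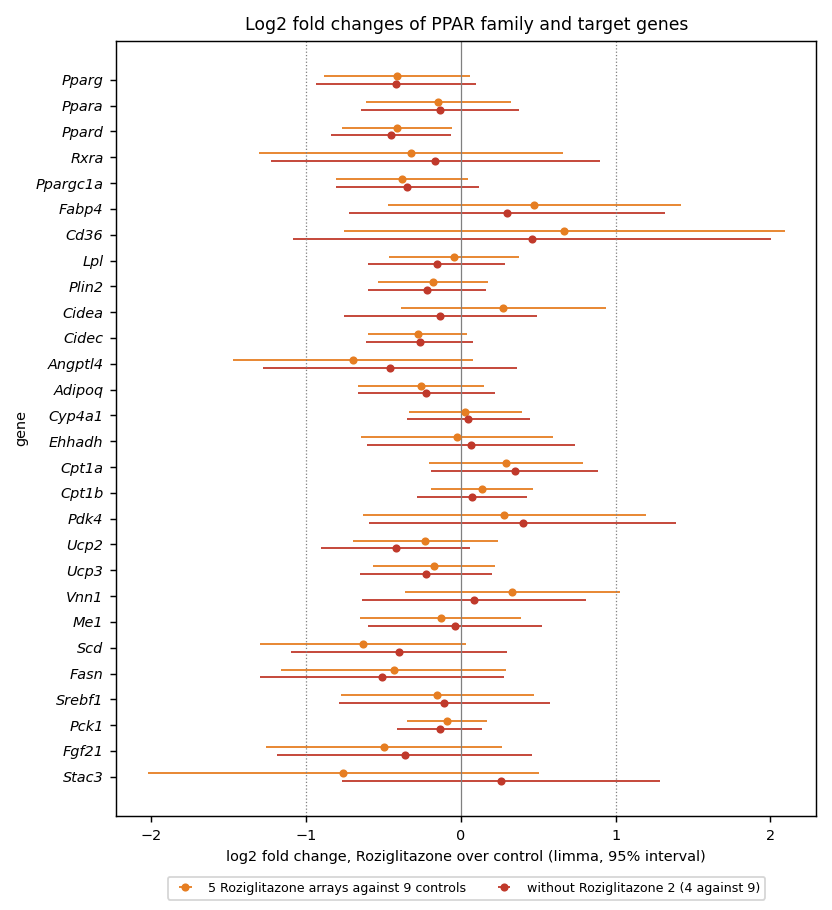
Log2 fold changes of Roziglitazone over control from limma, with 95% confidence intervals, for 28 measured genes. They are the PPAR family, metabolic genes and Stac3, which is on the growth hormone dependent list. Orange is all 5 Roziglitazone arrays and red is without Roziglitazone 2; dotted lines mark 2-fold differences, and the upper limit stays under 2-fold for 24 of the 28 genes without Roziglitazone 2.

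Without Roziglitazone 2, the upper 95% limit was under a 2-fold rise for 24 of these 28 genes. Cd36 and Fabp4 were among those whose upper limit passed it. The whole interval was within 2-fold for 19 of the 28, against 89.4% of all genes. The lowest adjusted p among the 28 was 0.803 (Ppard). Of their 38 probe sets, fitted apart among 20826 probe sets, 0 were called (lowest adjusted p 0.880), with several probe sets for 9 of the genes.

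Of 106 genes on the PPAR lists with a RefSeq promoter window (250 bases before to 50 after the start, build GRCr8), none held the full repeat AGGTCANAGGTCA on either strand, a motif found in 18 of 33469 windows (0.0538%). The shorter GGTCANAGGTCA was found in 34 windows (0.102%) and in 1 list gene, Acot8. The looser AGGNCANAGGNCA, which contains the full repeat, was found in 139 windows (0.415%) and in 1 list gene, Fabp1. Acot8 and Fabp1 are shown because they were the only list genes with a match to a looser motif, so the match picked them. Each held 1 of the looser motifs and not the full repeat. Both are classical PPARA targets, and their levels are given below. The motif is in capitals, 5' to 3' on the gene's strand, and in Fabp1 it lies on the opposite strand. A match of letters is a description and not a binding site.
Fabp1 (chr4:104749243-104749295, plus strand): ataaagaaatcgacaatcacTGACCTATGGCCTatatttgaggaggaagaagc
Acot8 (chr3:173962189-173962229, minus strand): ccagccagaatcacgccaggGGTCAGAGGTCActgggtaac

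Fabp1, the liver fatty acid binding protein, read 13.84, 13.28, 13.49, 13.77 and 13.75 in Roziglitazone 1 to 5, against 13.58, 13.70 and 13.79 in the lowest, median and highest control. Roziglitazone 2 and 3 were below every control and Roziglitazone 1 above. The log2 fold change was 0.01 ± 0.10, with a 95% interval from -0.20 to 0.21 without Roziglitazone 2. Acot8, a peroxisomal thioesterase, read 8.79, 8.20, 8.80, 9.02 and 9.38 in Roziglitazone 1 to 5, against 8.68, 9.07 and 9.37 in the lowest, median and highest control. Roziglitazone 1, 3 and 4 lay inside the control range, Roziglitazone 2 below it and Roziglitazone 5 just above it, and the log2 fold change was -0.03 ± 0.15.

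Lipid synthesis and glucose genes were likewise uncalled. Of 31 measured lipogenic genes 0 were called, with a median of -0.14 without Roziglitazone 2 and -0.15 with all arrays. At an unadjusted p under 0.05 without Roziglitazone 2, 2 were lower (6.45%), against 3.48% of all genes. The higher genes were 0, against 2.65% of all genes. With all arrays 4 were lower (12.9%), against 4.42% of all genes, and 0 higher, against 2.92%. Scd, the stearoyl-CoA desaturase, read 12.66, 11.12, 11.86, 13.02 and 11.57 in Roziglitazone 1 to 5, against 12.01, 12.68 and 13.27 in the lowest, median and highest control. Roziglitazone 2, 3 and 5 were below every control and Roziglitazone 4 in their upper part. Fasn, the fatty acid synthase, had a log2 fold change of -0.51 ± 0.39 and Srebf1, the insulin-responsive regulator of lipogenesis, of -0.11 ± 0.34. Lpin1, a phosphatidate phosphatase and coactivator, read 11.23 in Roziglitazone 1 and between 9.12 and 9.48 in the other 4, which lay below the lowest control at 9.66; the control median was 10.34 and the highest control 12.02. Its log2 fold change was -0.90 ± 0.44 without Roziglitazone 2 (limma adjusted p = 0.810) and -1.03 ± 0.41 with all arrays (adjusted p = 0.633). Of 26 glucose and insulin response genes 0 were called. Pck1, the gluconeogenic carboxykinase, lay between 12.65 and 12.99 in Roziglitazone livers, inside the 12.48 to 13.18 of the controls. Fgf21, the fasting hormone of the liver, had a log2 fold change of -0.36 ± 0.41.

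Against Caerulein and DNP, a contrast that uses no control array, 0 of 14217 genes (0%) were called by limma with all 5 Roziglitazone arrays and 0 (0%) without Roziglitazone 2. At an unadjusted p under 0.05 there were 1076 genes (7.57%) with all arrays, 264 higher (1.86%) and 812 lower (5.71%), and 751 genes (5.28%) without Roziglitazone 2, 180 higher (1.27%) and 571 lower (4.02%). Ppard and Pparg had log2 fold changes of -0.33 and -0.25 in this contrast without Roziglitazone 2, and Cyp4a1 of 0.09. No gene of the 28 was called; the lowest adjusted p among them was 0.796 without Roziglitazone 2 and 0.655, for Adipoq, with all arrays. At an unadjusted p under 0.05, 2 of the 28 were lower without Roziglitazone 2, Ucp2 and Adipoq, and 1 with all arrays, Adipoq. Adipoq had a log2 fold change of -0.48 ± 0.21 without Roziglitazone 2 (limma adjusted p = 0.796) and -0.51 ± 0.20 with all arrays, with the 5 Roziglitazone arrays between 5.77 and 6.17 against 5.98 to 6.85 in the Caerulein and DNP livers. Ucp2, a mitochondrial carrier, had -0.53 ± 0.23 without Roziglitazone 2 (adjusted p = 0.796) and -0.34 ± 0.23 with all arrays.

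The 5 genes with the lowest p against control without Roziglitazone 2 were Brcc3-ps7, Mterf1, Tubb2a, Gulp1 and Cdkn1a; they were chosen after their values were seen, and Cdkn1a is also on the list of p53 targets. Brcc3-ps7, a pseudogene by its symbol, read 4.94, 5.74, 5.33, 4.89 and 5.24 in Roziglitazone 1 to 5, against 5.61, 6.04 and 6.75 in the lowest, median and highest control. Only Roziglitazone 2 lay inside the control range. The log2 fold change without Roziglitazone 2 was -0.97 ± 0.20 (limma adjusted p = 0.321), and with all arrays -0.84 ± 0.19 (adjusted p = 0.560). Mterf1, a mitochondrial transcription terminator factor, read 8.92, 7.96, 8.49, 8.63 and 8.88 in Roziglitazone 1 to 5, against 7.73, 8.13 and 8.43 in the lowest, median and highest control. The 4 arrays without Roziglitazone 2 lay above every control and Roziglitazone 2 inside their range, a log2 fold change of 0.61 ± 0.13 without it (limma adjusted p = 0.357) and 0.45 ± 0.14 with all arrays (adjusted p = 0.560). Tubb2a, a beta tubulin, read 11.04, 12.15, 10.46, 10.87 and 10.74 in Roziglitazone 1 to 5, against 11.22, 11.71 and 11.94 in the lowest, median and highest control. The 4 arrays without Roziglitazone 2 were below every control, and Roziglitazone 2 was above every control. Its log2 fold change was -0.84 ± 0.19 without Roziglitazone 2 (limma adjusted p = 0.594) and -0.56 ± 0.21 with all arrays (adjusted p = 0.632). Gulp1, an adaptor for the engulfment of dying cells, read 5.39, 3.91, 4.49, 4.82 and 4.52 in Roziglitazone 1 to 5, against 3.34, 4.04 and 4.31 in the lowest, median and highest control. The 4 arrays without Roziglitazone 2 again lay above every control, at low signal, and the log2 fold change was 0.79 ± 0.19 without it (limma adjusted p = 0.661) and 0.61 ± 0.19 with all arrays (adjusted p = 0.560). Cdkn1a, which encodes the cell cycle inhibitor p21, read 9.41, 10.39, 8.99, 7.43 and 7.52 in Roziglitazone 1 to 5, against 8.98, 9.99 and 10.67 in the lowest, median and highest control. Roziglitazone 4 and 5 were far below the controls and the other 3 inside their range, a log2 fold change of -1.55 ± 0.38 without Roziglitazone 2 (adjusted p = 0.661) and -1.14 ± 0.39 with all arrays (limma adjusted p = 0.567).

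Weighting the arrays by how far each stood from its group, a setting of limma planned as an alternative, was the setting that gave most calls. It called 9 genes with all arrays, 2 higher (0.0141%) and 7 lower (0.0492%), and 15 without Roziglitazone 2, 5 higher (0.0352%) and 10 lower (0.0703%), with 7 genes in both. The weights were 0.29 for Roziglitazone 1, 0.52 for Roziglitazone 2 and 1.41 to 1.86 for Roziglitazone 3 to 5, so among the Roziglitazone arrays these 3 counted most. The 5 higher genes were C19h16orf87, Cir1, Esf1, Mterf1 and Tdp2 (a DNA repair enzyme). The 10 lower genes included Tubb2a, Cdkn1a, Mif (a cytokine), Tstd1, Apobec3 and Col8a2 (a collagen chain). Weighted log2 fold changes were -0.94 ± 0.16 for Tubb2a (limma adjusted p = 0.0224) and -1.65 ± 0.31 for Cdkn1a (adjusted p = 0.0367). No gene of the PPAR lists was among the 15 or the 9.

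Of the 38 gene lists, with 708 measured genes, no list held a called gene in the fits without array weights. List medians ran from -0.30 to 0.10 without Roziglitazone 2 and from -0.27 to 0.13 with all arrays. Of 17 measured circadian clock genes, 2 were higher (11.8%), against 2.65% of all genes, and 2 lower (11.8%), against 3.48%, at an unadjusted p under 0.05 without Roziglitazone 2. The same 4 passed with all arrays, against 2.92% higher and 4.42% lower of all genes. Nr1d1, a clock repressor, read 8.28, 7.03, 8.04, 9.48 and 9.03 in Roziglitazone 1 to 5, against 6.84, 7.25 and 8.55 in the lowest, median and highest control. Roziglitazone 4 and 5 were above every control. Its log2 fold change of 1.10 ± 0.34 against controls (limma adjusted p = 0.797, without Roziglitazone 2) compares with 0.10 against Caerulein and DNP. Nr1d2, its close relative, had 1.09 ± 0.44 against controls and 0.15 against Caerulein and DNP, while Cry1 and Bmal1, other clock components, had -0.80 ± 0.32 and -0.69 ± 0.29 against controls. Both contrasts share the Roziglitazone arrays, and the difference between them was not tested. Times of day are not given in the sources used here, and their part was not tested.

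Markers of other cells gave no call either. At an unadjusted p under 0.05 without Roziglitazone 2, 2 of 12 cholangiocyte markers were lower (16.7%), Cftr and Cldn4, against 3.48% of all genes. None was higher, against 2.65%. With all arrays 3 were lower (25%), Krt19 being the third, against 4.42%, and Epcam was higher (8.33%), against 2.92%. Of 14 pancreatic acinar markers, 2 were lower without Roziglitazone 2 (14.3%, against 3.48%) and 1 with all arrays (7.14%, against 4.42%). None of the 14 was higher. The 14 hepatocyte markers had a median log2 fold change of -0.03 and the 14 macrophage markers of -0.01 without Roziglitazone 2. Averaged over the hepatocyte list, Roziglitazone 1 stood at -0.39 and the other 4 arrays between 0.06 and 0.15, against -0.40 to 0.15 in the controls. The 17 stellate cell and fibroblast markers had a median of -0.30 without Roziglitazone 2, the lowest of the 38 lists, against -0.06 over all genes. Of them 15 (88.2%) were negative, against 60.6% of all genes. With all arrays their median was -0.17, against -0.06, and 12 (70.6%) were negative, against 61.3%. The lowest median with all arrays was that of the 6 erythroid markers (-0.27). Loxl1, an elastin and collagen crosslinking enzyme, was the 1 stellate cell and fibroblast gene (5.88%) lower at an unadjusted p under 0.05, against 3.48% of all genes without Roziglitazone 2 and 4.42% with all arrays. Their list mean was 0.60 in Roziglitazone 2 and between -0.47 and -0.21 in the other 4, against -0.31 to 0.49 in the controls. The 8 adipocyte genes had a median level of 6.11 in Roziglitazone livers and 6.39 in control livers. Their list mean lay below the control range in 4 of the 5 Roziglitazone arrays, all but Roziglitazone 1. The mean over all genes lay below the control range in Roziglitazone 3 and 4. Acute phase genes averaged 0.59 above the control mean in Roziglitazone 2 and 0.62 above it in Roziglitazone 3, against -0.27 to 0.18 in the controls. A2m, the rat acute phase protein alpha-2-macroglobulin, read 9.59, 12.40, 12.70, 9.01 and 9.46 in Roziglitazone 1 to 5, against 7.14, 8.89 and 10.55 in the lowest, median and highest control. Roziglitazone 2 and 3 were above every control and the other 3 inside their range.

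**Figure D4:**
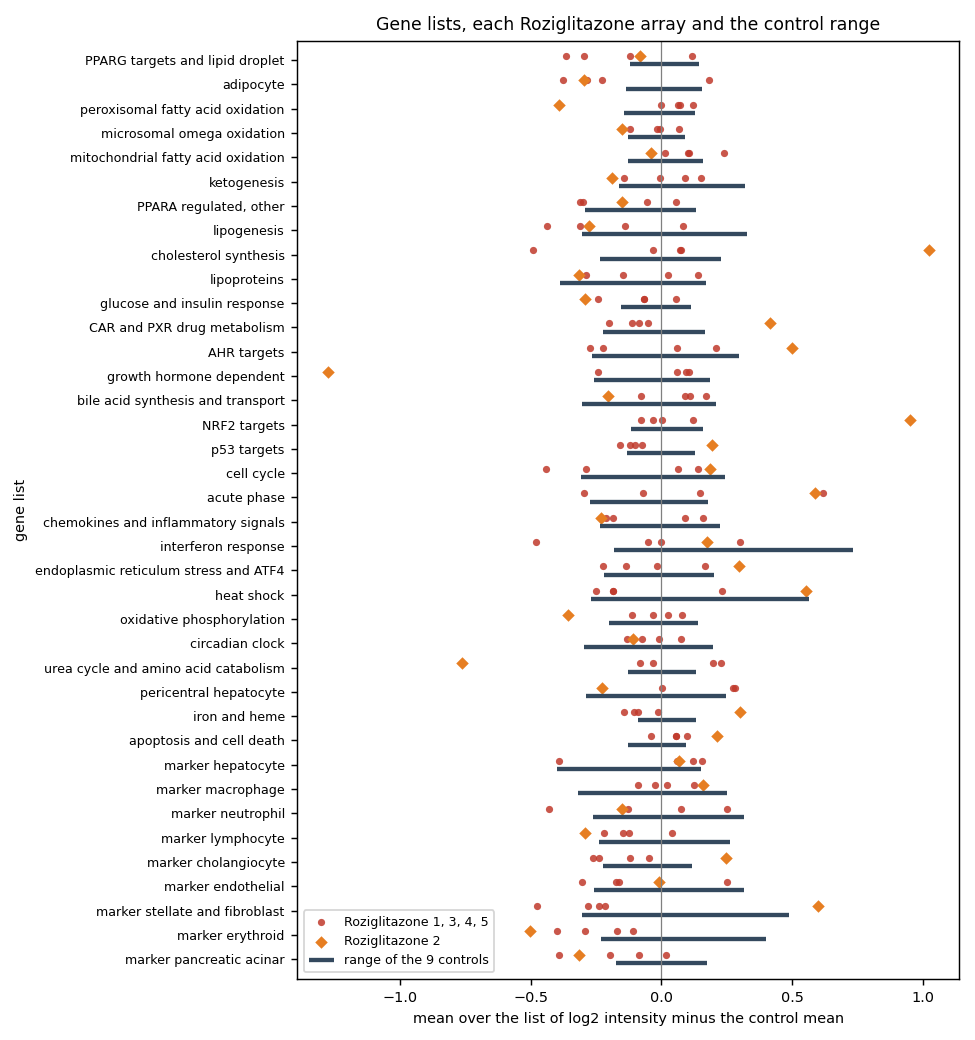
Mean over each of 38 gene lists of log2 intensity minus the control mean, for each Roziglitazone array (points) and as the range of the 9 controls (bars). Roziglitazone 2 (orange diamonds) lies outside the control range in 22 lists, most of all for growth hormone dependent genes (-1.28) and cholesterol synthesis (1.02). Averaged over all genes, which are not drawn, Roziglitazone 3 and 4 lie below the control range.

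Roziglitazone 2 lay outside the control range in 22 of the 38 lists, against 5, 14, 12 and 7 for Roziglitazone 1, 3, 4 and 5. Averaged over all genes, Roziglitazone 3 and 4 were below the control range and the others inside it. The list means of Roziglitazone 2 were 1.02 for cholesterol synthesis and 0.95 for targets of NRF2 (the oxidative stress regulator). They were -1.28 for growth hormone dependent genes and -0.76 for the urea cycle and amino acid catabolism. For each of these lists Roziglitazone 2 was outside the control range. The 4 ANIT arrays without ANIT 3, whose own r was 0.73 for the DMN profile and 0.30 for the ANIT profile, ran from 1.12 to 1.56, 0.59 to 1.04, -1.47 to -1.26 and -0.89 to -0.57 in the same order. In the PPARG target list Roziglitazone 2 was at -0.08, inside the control range.

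The single genes by which Roziglitazone 2 stood furthest from the rest of its group, 8 in each direction, are given as a description with no test. Stac3 read 6.00 in Roziglitazone 2 and 11.25, 10.71, 11.11 and 11.31 in Roziglitazone 1, 3, 4 and 5, against 5.19 to 6.01 in those 4 ANIT arrays and 10.32 to 11.36 in control livers. Car3, a carbonic anhydrase abundant in male rat liver, read 9.13 in Roziglitazone 2 and 13.55 to 13.76 in the other Roziglitazone arrays, against 13.33 to 13.75 in controls. Cyp1a1, the aryl hydrocarbon receptor target, read 11.33 in Roziglitazone 2 and 5.14 to 6.84 in the others, against 5.69 to 8.30 in controls. Gstm3, a glutathione transferase, and Abcc3, a basolateral bile salt exporter, read 11.84 and 10.59 in Roziglitazone 2, against at most 8.55 and 7.15 in controls. Roziglitazone 2 was outside the control range in all 16 genes and inside the range of the 5 ANIT arrays in 14 of them. Lcn2, an acute phase protein, was the exception within the group, since Roziglitazone 3 read 12.89 beside 13.30 in Roziglitazone 2 and the highest control read 9.71. Leaving Roziglitazone 2 out moved the log2 fold change of Stac3 to 0.26, against -0.76 with all arrays.

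**Figure D5:**
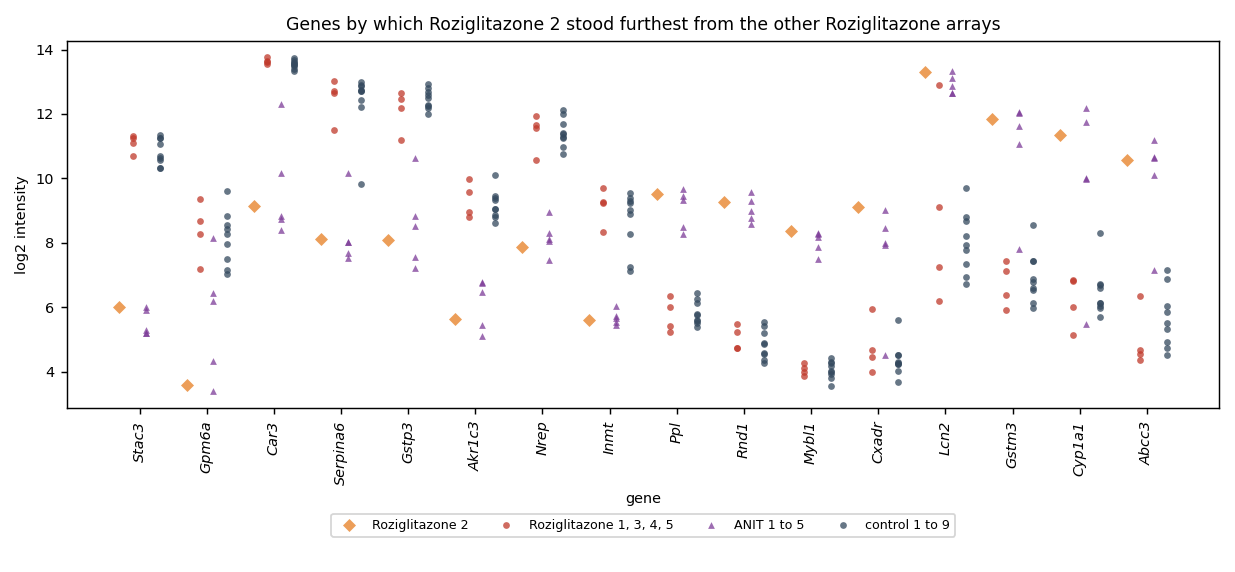
Log2 intensity of the 16 genes by which Roziglitazone 2 (orange diamonds) stood furthest from Roziglitazone 1, 3, 4 and 5 (red), beside the 5 ANIT arrays (purple triangles) and the 9 controls (dark). Roziglitazone 2 lies with most ANIT arrays and outside the control range in all 16 genes.

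Roziglitazone 1 and 2 were also set against the same mean, that of Roziglitazone 3, 4 and 5. Roziglitazone 1 lay at least 2 log2 units from it in 236 genes, 71 higher and 165 lower, and Roziglitazone 2 in 149 genes, 86 higher and 63 lower. With Roziglitazone 1 left out and Roziglitazone 2 kept, 0 genes were called by limma and 1448 had an unadjusted p under 0.05.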

How the data were processed

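The authors deposited 1 intensity per probe set on a linear scale, and per the submitters' processing notes used RMA and the affy package; the step back to a linear scale is not given in the sources used here. The log2 was taken here. Of 31099 probe sets, 20826 carried 1 gene symbol; for each of 14217 genes the brightest probe set stood for the gene. No dim genes were left out. limma 3.58.1 in R 4.3.3 (lmFit, contrasts.fit, eBayes) fitted 1 mean per group to all 39 arrays, or to the 38 without Roziglitazone 2, and p-values were adjusted by Benjamini-Hochberg over all genes. The fit was tested on simulated data. Named genes were the 5 with the lowest p of each list and a fixed set of 31 genes (28 are reported here). The fixed set held the PPAR family, metabolic genes and Stac3. Also named were the 8 genes per direction in which Roziglitazone 2 differed most from its group. Genes called in the main fits were to be added, and there were none. The gene set, the lists and the doubt about Roziglitazone 2 were chosen with earlier results of these data known. The labels call the arrays biological replicates. Alternatives covered scaling, dim genes, probe set choice, weights and single arrays.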

Additional observations from a re-analysis of the deposited data

Results flagged for a closer look

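Within-group values were screened by Dixon's test, which asks whether the gap between the highest or lowest array and its nearest neighbour is large for the range of its group. In all, 162 groups of values were screened: the named PPAR genes, the genes that set Roziglitazone 2 apart, and the 38 list means, in Roziglitazone and in control livers. The 16 genes that set Roziglitazone 2 apart were picked for that, so the 11 arrays found in their 32 groups are a description only. Of the other 130 groups, 17 (13.1%) held such an array, where chance gives about 1 in 20. Lists share genes and arrays, so these groups are not independent. Some lists also hold genes picked for Roziglitazone 2, whose resemblance to ANIT was known beforehand. The share of 13.1% thus rests in part on what was known, and the list means of Roziglitazone 2 are a description too.

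Roziglitazone 2 accounted for 8 of the 11 and for 6 of the 17. Among the genes picked for it, it was low in Akr1c3 (5.64, against 8.79 to 9.97 in the other Roziglitazone arrays), Car3 (9.13) and Stac3 (6.00). It was high in Cyp1a1 (11.33), Gstm3 (11.84), Mybl1 (8.37, against 3.87 to 4.27), Ppl (9.52) and Rnd1 (9.26). Among the list means it was at -0.39 for peroxisomal fatty acid oxidation, where the other 4 arrays lay between -0.00 and 0.12, at -1.28 for growth hormone dependent genes, at 0.41 for CAR and PXR drug metabolism, at 0.95 for NRF2 targets, at 0.19 for p53 targets and at 0.60 for stellate cell and fibroblast markers.

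Roziglitazone 1 was low in Cd36 (6.24, against 8.46 to 9.15) and in the hepatocyte markers (-0.39, against 0.06 to 0.15), and high in the adipocyte list (0.18, against -0.38 to -0.23).

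Control 5 stood apart in 5 cases: Cxadr at 5.60, Ppara at 5.27, Serpina6 at 9.81, the lipoprotein list at -0.39 and the hepatocyte markers at -0.40. The others were single cases. Control 1 was high in Cyp1a1 (8.30) and in the heat shock list (0.57), control 2 in the interferon response list (0.73, against -0.18 to 0.04) and control 4 in the erythroid markers (0.40). Control 8 was low in Pdk4 (8.32, against 9.69 to 10.18) and control 9 in Adipoq (5.55).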

How the results depend on the processing

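The 0 calls of limma's main fits were recomputed under 25 to 27 alternatives per comparison. Against controls the count stayed 0 under 25 of 26 alternatives with all Roziglitazone arrays, and the array weights gave 9 calls. Without Roziglitazone 2 it stayed 0 under 23 of 25; the array weights gave 15 calls, and leaving out Roziglitazone 4 as well gave 1, Sult1d1 (log2 fold change 0.81, adjusted p = 0.0228), which reads 3.25 to 3.57 in the controls, near or below the signal of the poly-A control probe sets of this array design (3.49 to 4.70). Against Caerulein and DNP it stayed 0 under all 27 alternatives with all arrays. Without Roziglitazone 2 it stayed 0 under 25 of 26, and leaving out Roziglitazone 4 gave 1, again Sult1d1. Leaving out single arrays thus gave 0 to 0 calls with all arrays and 0 to 1 without Roziglitazone 2 in both contrasts; the cause was not tested. A pair of alternatives were added after seeing the data, leaving out the 6 arrays with a GAPDH 5' signal more than 2 below the 3' signal and the GAPDH difference as a covariate, and both gave 0 calls in all 4 comparisons. The genes of the fixed set, Stac3 included, were called under none of 1416 combinations of gene and alternative, and their log2 fold change had another sign in 52. The labels do not say that replicate numbers pair the rats, and 2 of 5 same-numbered pairs had deviations that correlated above 0.1. The replicate block gave 0 calls in all 4 comparisons; 0 of 5 Roziglitazone arrays deviated most like the control of the same number. Under the block the log2 fold change of Cd36 was 1.49 without Roziglitazone 2, against 0.46. Counts at an unadjusted p under 0.05 ran from 728 to 2210 with all arrays. Arrays have no depth, and with 4 or 5 arrays against 9 the median gene's 95% interval spans 1.35-fold or 1.32-fold to either side.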
